A study of Mus musculus with 17 samples.

Results

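The comparison described here set the 6 tumors with the highest Th against the 6 with the lowest Th, out of 17 primary neuroblastomas of TH-MYCN mice. Th encodes tyrosine hydroxylase, the rate-limiting enzyme of catecholamine synthesis. The members were chosen by a measured value, the log2 value of the 1 probe set annotated only to Th, and the 5 tumors between the groups stayed outside the comparison. Th itself was then left out, and each of 18192 other genes was tested by its probe set of highest mean.

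Each tumor was a primary abdominal tumor with its own Affymetrix whole-genome mouse array, hybridized after a two-cycle amplification of total RNA. All 17 tumors carried the same genotype, hemizygous for TH-MYCN on 1 inbred background by the study's text. Both groups therefore carried the transgene, a human MYCN gene under a rat tyrosine hydroxylase promoter that acts in neural crest cells, and no treatment is named for any tumor. The labels gave no age, sex or weight for a tumor. The study's text states that its tumors came from mice of both sexes and a range of ages, without values for single tumors. The groups were thus set by a measured value and not by a condition, so a difference between them is an association with Th over tumors. The tumors are named by the submitters' numbers.

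The values that chose the groups are a description and carry no test. In the high-Th group Th ran from 13.51 (mad563) over a median of 13.59 to 14.33 (mad554), on the deposited log2 scale. In the low-Th group it ran from 11.54 (mad549) over a median of 12.72 to 12.84 (mad555). The 5 tumors between lay at 12.90 to 13.20. The upper border was a gap, from 13.51 just inside to 13.20 just outside, whereas the lower border was close, with 12.84 just inside and 12.90 just outside. Th was strongly expressed in every tumor, since all 17 values lay far above the array medians of 6.28 to 6.51, and "low" is meant relative to the other tumors only. The low-Th group held a pair of tumors, mad549 and mad556 (11.73), well below its other 4 members.

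**Figure D1:**
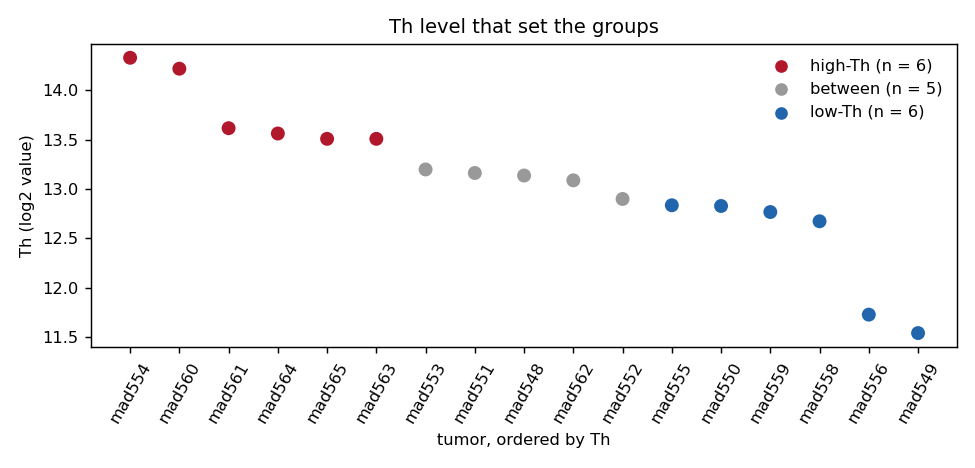
Th log2 value (y axis) of each of the 17 tumors, ordered by it (x axis), with the high-Th group in red, the 5 tumors between in grey and the low-Th group in blue. The values fell in small steps from 13.20 to 12.67 in the middle of the order, and mad554, mad560, mad556 and mad549 lay at the ends.

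As background, sympathetic neurons and adrenal chromaffin cells make catecholamines from tyrosine through tyrosine hydroxylase, Dopa decarboxylase (Ddc) and dopamine beta-hydroxylase (Dbh). They load the transmitter into large dense-core vesicles through the vesicular monoamine transporters. Those vesicles also carry granins, acidic secretory proteins such as chromogranin A (Chga) and secretogranin II (Scg2), together with neuropeptides and the enzymes that cut and amidate them. Transcription of Th and of several granin genes is known to respond to cyclic AMP through the cAMP response element, CRE.

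Promoter windows were read for the lists described below to show which genes hold the 8-letter CRE, TGACGTCA. The windows hold the 250 bases before the RefSeq start (build GRCm38.p6), and the following 4 are shown because they carry Th itself and the 3 classical granins, Scg2, Chgb and Chga. They were picked after the matches had been seen. Letters are 5′ to 3′ on the gene's strand, with the CRE in capitals.
Th, chr7:142899996-142900245, minus strand: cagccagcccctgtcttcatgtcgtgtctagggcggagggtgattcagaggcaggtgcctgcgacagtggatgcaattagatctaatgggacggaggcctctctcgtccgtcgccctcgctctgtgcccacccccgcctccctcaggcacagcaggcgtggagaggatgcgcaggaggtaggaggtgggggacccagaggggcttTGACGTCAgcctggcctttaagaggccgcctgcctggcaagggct
Scg2, chr1:79440027-79440276, minus strand: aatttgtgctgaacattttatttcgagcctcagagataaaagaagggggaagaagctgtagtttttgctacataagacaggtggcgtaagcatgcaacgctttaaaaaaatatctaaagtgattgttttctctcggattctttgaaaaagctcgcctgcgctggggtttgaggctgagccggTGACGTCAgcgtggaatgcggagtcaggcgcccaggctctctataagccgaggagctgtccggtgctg
Chgb, chr2:132781392-132781641, plus strand: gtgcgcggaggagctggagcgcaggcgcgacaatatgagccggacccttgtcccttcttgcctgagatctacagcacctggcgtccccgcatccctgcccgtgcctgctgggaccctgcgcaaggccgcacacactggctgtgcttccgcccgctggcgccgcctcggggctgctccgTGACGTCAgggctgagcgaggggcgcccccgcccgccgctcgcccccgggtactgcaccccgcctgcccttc
Chga, chr12:102554691-102554940, plus strand: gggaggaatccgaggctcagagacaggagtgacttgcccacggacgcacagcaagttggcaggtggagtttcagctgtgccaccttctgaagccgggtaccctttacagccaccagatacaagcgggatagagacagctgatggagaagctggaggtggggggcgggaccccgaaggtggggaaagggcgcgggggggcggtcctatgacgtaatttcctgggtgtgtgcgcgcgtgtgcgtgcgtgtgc

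The CRE began 45 bases before the start of Th, 68 before Scg2 and 72 before Chgb. The window of Chga held no exact match, but it held TGACGTAA, which differs from the CRE in 1 letter. Near matches were not searched for. Over all 32851 windows of this length, 1.55% held the CRE. Among granin and peptide-processing genes 3 of the 8 with a window held it (Chgb, Scg2 and Pcsk1), against 0 of 9 catecholamine genes, 1 of 10 immediate early genes (Dusp1), 1 of 13 hypoxia genes (Ldha) and 2 of 8 neuropeptides (Sst and Cartpt). The other 3 motifs were searched on both strands too, and none of the motifs contains another. The MYC E-box CACGTG was in 0 of the same 8 granin windows and in 6.02% of all windows. The E-box CAGCTG was in 2 of them and in 13.0% of all, and the AP-1 site TGANTCA in 1 and in 6.75%. The high-Th minus low-Th differences of these 7 genes on the log2 scale were 1.99 for Scg2, 0.48 for Dusp1, 0.43 for Cartpt, 0.14 for Ldha, 0.10 for Chgb, 0.05 for Pcsk1 and -0.11 for Sst, and the median over all genes was 0.02. These matches are letters in a window and not binding sites.

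No single gene passed the test between the groups. By limma with Benjamini-Hochberg adjustment over 18192 genes, 0 genes (0%) were higher and 0 (0%) were lower in the high-Th tumors at an adjusted p under 0.05. The lowest adjusted p was 0.0825, reached by Muc2 and Fzd2. Without adjustment, 1104 genes (6.07%) were higher and 538 (2.96%) lower at p under 0.05. An exact permutation test of each gene over the 12 tumors also left 0 calls after adjustment, with 1078 and 522 genes at an unadjusted p under 0.05. The groups did not overlap for 67 genes with all high-Th tumors above (0.368%) and for 18 with all of them below (0.0989%). The median difference over all genes was 0.02, on values that had been normalized across arrays, and 8082 of the 18192 genes had a negative difference. Each difference named below is therefore a size with its error that missed the adjusted threshold, unless stated otherwise, and in bulk tumors more cells of a type and more RNA per cell cannot be told apart.

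A model with Th as a level over all 17 tumors called 9 genes with a positive slope (0.0495% of 18192) and 0 with a negative one (0%). The 9 genes were Aldh3b1, Fgf14, Pld3, Ascl2, Fhdc1, Creb3l2, Vgf, Scg2 and Dop1b, with adjusted p between 0.0423 and 0.0440 in limma. The slopes of the granins Scg2 (1.18 per log2 unit of Th, SE 0.21) and Vgf (1.14, SE 0.20) were the steepest of the 9. Without mad549 and mad556, the tumors farthest from the median of Th, the same model called 6 genes, Scg2, Ptprn, Insig2, Vgf, Atp6v1b2 and Doc2b, all with positive slopes. Scg2 and Vgf were the only genes called in both, with slopes of 1.95 and 1.73 and adjusted p of 0.00478 and 0.0190 over the 15 tumors. That fit was added after the data had been seen and used the same tumors and Th values, so it is no separate test. The comparison of groups without the same pair gave 0 calls, with a lowest adjusted p of 0.857 in limma. The slope without mad554, the tumor of highest Th, Scg2 and Vgf, was not fitted. Of 27 alternatives run, 6 gave any call, as listed after the results.

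**Figure D2:**
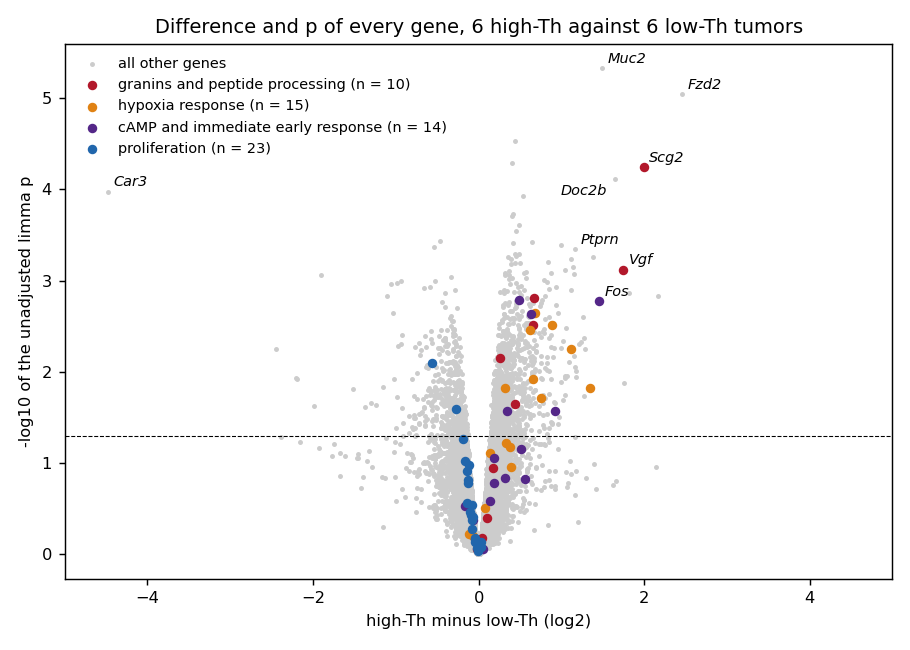
High-Th minus low-Th difference on the log2 scale (x axis) against the -log10 of the unadjusted limma p (y axis) for every gene, with the genes of 4 lists in colour and the line at a p of 0.05. Granin, hypoxia and immediate early genes lay mostly to the right of 0 and proliferation genes close to it, and Muc2, Fzd2 and Scg2 were near the top.

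The granins and their processing enzymes included Scg2, which had the largest positive difference of any gene in the 25 lists. Of 10 measured genes, 6 were higher in the high-Th tumors at an unadjusted p under 0.05 and 0 were lower, beside 6.07% and 2.96% of all genes, and the median difference was 0.35 beside 0.02. The mean of the 10 genes was 10.18 to 11.08 in the high-Th tumors and 9.88 to 10.13 in the low-Th tumors, so the groups did not overlap. The list was written with earlier results of these data known, so its count is a description. Without mad549 and mad556 the count was 5 of 10.

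Scg2, the precursor of secretoneurin and a builder of dense-core vesicles, ranged from 7.42 (mad565) over a median of 8.34 to 10.06 (mad554) in the high-Th tumors. It ranged from 5.85 (mad559) over 6.55 to 6.84 (mad555) in the low-Th tumors. All high-Th tumors thus lay above all low-Th tumors, and 4 of the 5 tumors between lay above the low-Th group. The difference was 1.99 ± 0.35 (SE), a fold of 3.99, with an adjusted p of 0.209 in limma. It was 1.68 without mad554, the tumor of highest Th and Scg2, where its adjusted p was 0.0465.

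Vgf, a granin-like precursor of several neuropeptides, was at 8.70, 10.08 and 11.64 (lowest, median and highest) in the high-Th tumors and at 7.73, 8.22 and 8.75 in the low-Th tumors. The groups met only at mad563 (8.70) and mad555 (8.75). Its difference was 1.75 ± 0.40 (SE, adjusted p = 0.360 in limma), and 1.42 without mad554. Chga, the classical chromaffin marker, was at 12.42, 12.92 and 13.51 against 11.94, 12.27 and 12.50, a difference of 0.67 ± 0.17 (SE, adjusted p = 0.372). High-Th mad563 and mad565 lay within the low-Th range of Chga, and the other 4 lay above it.

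The remaining members differed by less. Pam, which amidates peptide ends, was at 9.41 to 10.34 in the high-Th tumors and 8.83 to 9.71 in the low-Th tumors, a difference of 0.66 ± 0.18 (SE, adjusted p = 0.374). Pcsk1n, which encodes the proSAAS inhibitor of prohormone convertase 1, differed by 0.44 and Cpe, which trims the cut peptides, by 0.26. A second, dim probe set of Cpe gave -0.04. Chgb (0.10), Scg3 (0.17), Scg5 (-0.02) and Pcsk1 (0.05) lay within 2 SE of 0, so granins did not differ together as a class.

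**Figure D3:**
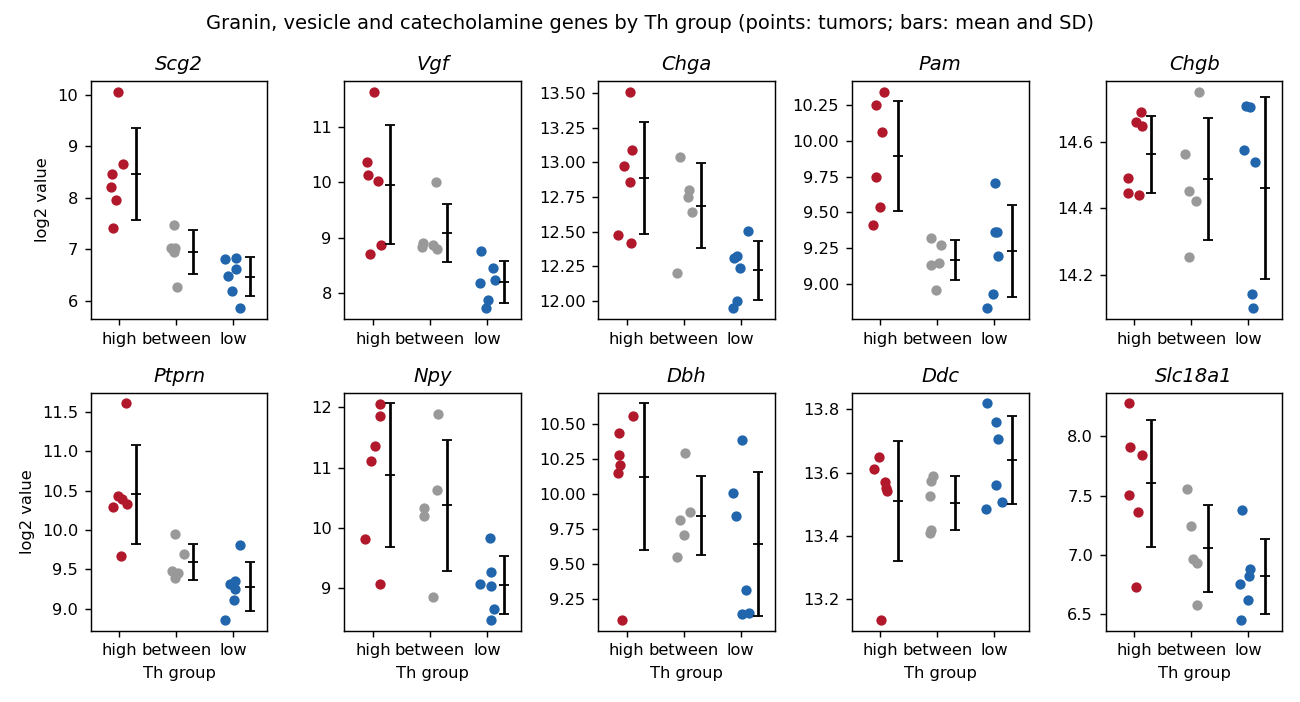
Log2 values (y axes, each on its own scale) of 10 genes in the tumors of the 3 Th groups (x axes), with points for tumors and bars for the mean and SD. Scg2 was the only gene shown whose high-Th and low-Th tumors did not overlap, and mad565 was the lowest high-Th point for Dbh, Ddc and Slc18a1.

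Some genes of the same vesicles outside the list are given as a description. Ptprn and Doc2b were named for their low p in this same comparison, so they add no separate support. Ptprn, the dense-core vesicle membrane protein also called IA-2, was at 9.66, 10.36 and 11.61 in the high-Th tumors and at 8.86, 9.28 and 9.81 in the low-Th tumors. Only mad565 lay within the low-Th range, and the difference was 1.17 ± 0.25 (SE, adjusted p = 0.360). Resp18, an endocrine secretory protein, and Nts, the neuropeptide neurotensin, were named after their values had been seen. Their differences were 1.38 ± 0.31 and 1.14 ± 0.26 (SE). Doc2b, a calcium sensor of vesicle release, differed by 1.65 ± 0.29 (SE, adjusted p = 0.232), and without mad565 by 1.87, where its adjusted p was 0.0441.

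Of 9 neuropeptide precursors, 1 was higher at an unadjusted p under 0.05 and 0 were lower, beside 6.07% and 2.96% of all genes. The list's median difference was 0.39. The 1 higher gene was Npy, the sympathetic co-transmitter neuropeptide Y. Its values were 9.07, 11.23 and 12.06 in the high-Th tumors and 8.47, 9.05 and 9.83 in the low-Th tumors. High-Th mad563 and mad565 fell in the low-Th range, the same pair as for Chga, and the difference was 1.82 ± 0.45 (SE, adjusted p = 0.360). Tac1, the precursor of substance P, had a wide range in the high-Th tumors, 4.84 to 8.83, against 4.60 to 5.39, and a difference of 1.17 ± 0.55 (SE), or 0.61 without mad554, its highest tumor. Sst, somatostatin, differed by -0.11 ± 0.09.

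The other enzymes and carriers of the catecholamine pathway followed Th less closely. Of 14 measured genes, 3 were higher at an unadjusted p under 0.05 (Slc18a1, Pcbd1 and Slc18a2) and 0 were lower. Over all genes those shares were 6.07% and 2.96%, and the list's median difference was 0.08. Dbh, which turns dopamine into noradrenaline, was at 9.10, 10.24 and 10.56 in the high-Th tumors and 9.15, 9.58 and 10.39 in the low-Th tumors. The groups overlapped over nearly their whole range, because mad565 (9.10) had the lowest Dbh of all 12 tumors and low-Th mad555 (10.39) one of the highest. Its difference was 0.48 ± 0.26 (SE, adjusted p = 0.623), and its other probe sets gave 0.63 and 0.19.

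Ddc, the enzyme next after tyrosine hydroxylase, lay in a narrow band, 13.13 to 13.65 in the high-Th tumors and 13.49 to 13.82 in the low-Th tumors. Its difference was -0.13 ± 0.10 (SE), with 0.30 at its second, dimmer probe set, so no direction was clear. Slc18a1, the monoamine transporter typical of chromaffin cells, was at 6.73, 7.68 and 8.28 against 6.45, 6.79 and 7.38. The difference was 0.79 ± 0.22 (SE, adjusted p = 0.374), although 2 dimmer probe sets gave 0.22 and -0.01. Slc18a2, the transporter typical of neurons, differed by 0.33.

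Gch1, which opens the synthesis of tetrahydrobiopterin, the cofactor of tyrosine hydroxylase, differed by 0.54 ± 0.25, and Pcbd1, which recycles that cofactor, by 0.39 ± 0.13. Other cofactor genes, Pts (-0.06), Spr (0.08) and Qdpr (0.13), stayed near 0. The same held for the noradrenaline transporter Slc6a2 (0.05), the vesicular electron carrier Cyb561 (0.09) and the monoamine oxidase Maoa (0.02). Maob (-0.25) and Pnmt (-0.27), the latter making adrenaline from noradrenaline, were lower on average, with SE of 0.19 and 0.21.

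Transcription factors that specify the sympathoadrenal lineage did not separate the groups. Of 12 measured, 0 reached an unadjusted p under 0.05 in limma in either direction, and their median difference was -0.03. Hand2, Isl1 and Tfap2b were at or above 12.26 in all 12 tumors and differed by -0.22 ± 0.11, -0.16 ± 0.14 and -0.13 ± 0.10 (SE). Gata2 (0.49 ± 0.30), Phox2a (0.19 ± 0.24) and Gata3 (-0.19 ± 0.17) had wider errors. Hand1 (0.10), Insm1 (-0.04), Eya1 (-0.02), Tlx2 (0.03) and Sox11 (-0.18) had SE of 0.09 to 0.19. Tbx20 ranged from 4.14 to 8.30 in the high-Th tumors alone, and its difference of 0.55 was smaller than its SE of 0.56.

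Mycn differed by less than 0.01 in size, with an SE of 0.14 and values of 9.02 to 9.31 in the high-Th and 8.59 to 9.53 in the low-Th tumors. Whether these mouse probe sets also detect the human transgene was not tested, and its dimmer probe sets gave 0.39 and -0.05. Of 10 genes of the Myc family and Max network and 16 targets of MYC, 0 reached an unadjusted p under 0.05 in limma. The median differences were -0.03 and less than 0.01 in size.

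Neuronal genes were mixed. Of 18 cytoskeletal and synaptic genes, 4 were higher at an unadjusted p under 0.05 (Map2, Syp, Syt1 and Eno2) and 0 were lower. Over all genes those shares were 6.07% and 2.96%, and the list's median difference was 0.10. Syp, the vesicle protein synaptophysin, was at 9.12, 10.10 and 10.35 in the high-Th tumors and 8.73, 9.26 and 9.73 in the low-Th tumors. Its difference was 0.67 ± 0.21 (SE), with -0.07 at a dim second probe set. Map2, a dendritic microtubule protein, differed by 0.33, the calcium sensor Syt1 by 0.37 and the neuronal enolase Eno2 by 0.65. The neurofilament genes differed by 0.24 (Nefm), -0.08 (Nefh) and -0.16 (Nefl), with 0.14 at the second Nefl probe set. The microtubule protein Dcx of young neurons differed by -0.15 and the neuronal tubulin Tubb3 by -0.05, and all of these genes overlapped between the groups. Among receptors, Ret, which binds ligands of the GDNF family with its co-receptors, differed by 0.99 ± 0.35 (SE), and 1 of 8 receptor genes reached an unadjusted p under 0.05. Alk (-0.23 ± 0.16), Ntrk2 (-0.10 ± 0.14) and Ntrk3 (-0.32 ± 0.36) overlapped between the groups. Ache, acetylcholinesterase, was the 1 of 8 cholinergic genes at an unadjusted p under 0.05, with a difference of 0.34. It lay near the array floor, at 4.72 to 5.22 in the high-Th and 4.44 to 4.85 in the low-Th tumors.

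**Figure D4:**
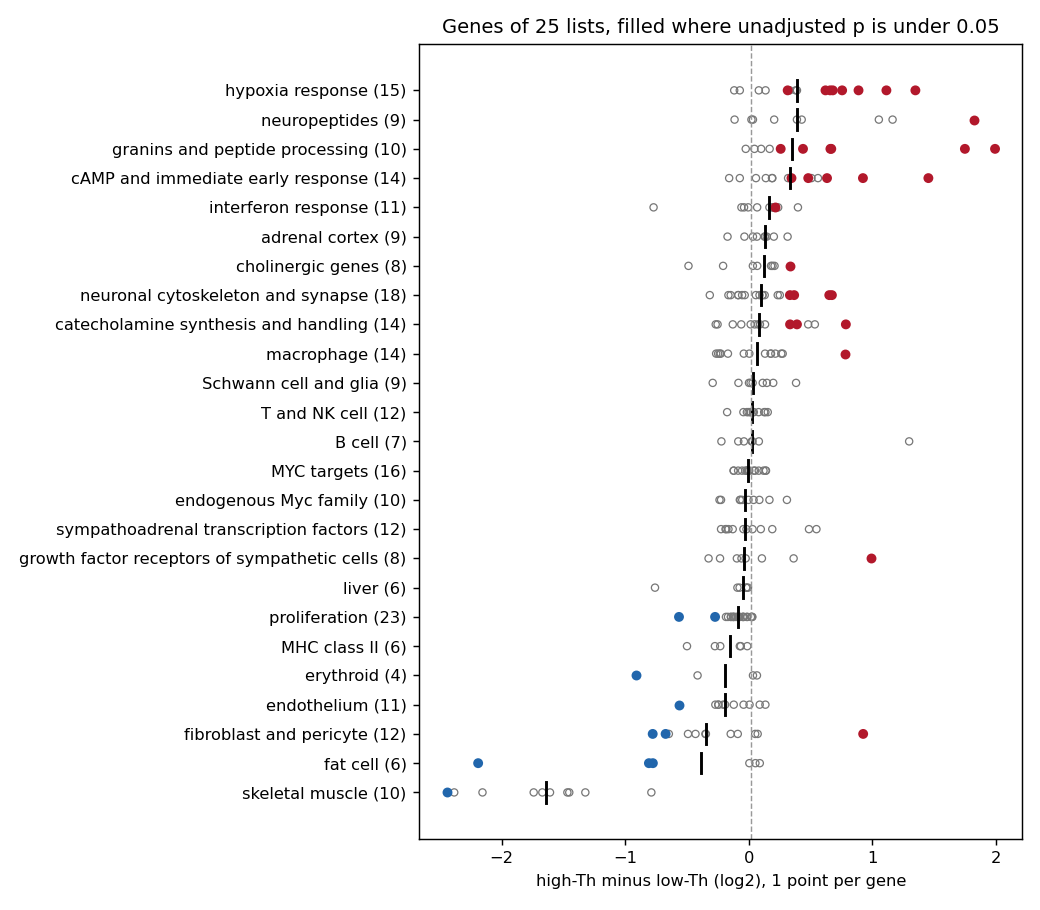
High-Th minus low-Th difference on the log2 scale (x axis) of each measured gene of 25 lists (y axis, number of genes in brackets), filled where the unadjusted p is under 0.05, with the list's median as a bar and that of all genes (0.02) as a dashed line. Hypoxia, neuropeptide, granin and immediate early lists had the highest medians (0.33 to 0.39), and the skeletal muscle list the lowest (-1.64).

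Of 15 hypoxia genes, 13 had a positive difference, beside 10110 of all 18192 genes, and the median was 0.39. At an unadjusted p under 0.05, 8 were higher and 0 were lower, beside 6.07% and 2.96% of all genes. Adm, adrenomedullin, was at 10.12, 11.95 and 12.50 in the high-Th tumors and at 10.07, 10.72 and 11.17 in the low-Th tumors. All high-Th tumors but mad565 lay above the low-Th range, and the difference was 1.12 ± 0.34 (SE, adjusted p = 0.374), or 1.44 without mad565, where its adjusted p was 0.0461. Egln3, an oxygen-sensing prolyl hydroxylase, differed by 1.35 ± 0.48, and P4ha1, a collagen prolyl hydroxylase, by 0.68 ± 0.18.

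Ankrd37 (0.89), the glucose transporter Slc2a1 (0.76), the pyruvate dehydrogenase kinase Pdk1 (0.66), the mitophagy gene Bnip3 (0.62) and the glycolytic Pgk1 (0.32) completed the 8. Vegfa, the endothelial growth factor, differed by 0.38 ± 0.19, and Car9 (-0.07) and Hk2 (-0.12) had the 2 negative differences. The list mean was 9.63 to 10.40 in the high-Th and 9.29 to 9.86 in the low-Th tumors, so the groups overlapped. The 3 highest list means of all 17 tumors were those of mad554, mad561 and mad560, which also had the 3 highest Th values.

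Of 14 immediate early and cAMP-responsive genes, 5 were higher at an unadjusted p under 0.05 (Dusp1, Fos, Crem, Nr4a1 and Jun) and 0 were lower. Over all genes those shares were 6.07% and 2.96%, and the list's median difference was 0.33. Fos, an AP-1 subunit induced within minutes of stimulation, was at 8.55, 9.90 and 10.79 in the high-Th tumors and 7.63, 8.21 and 9.19 in the low-Th tumors. Its difference was 1.46 ± 0.37 (SE, adjusted p = 0.372), and high-Th mad560 and mad563 lay within the low-Th range. Dusp1, a phosphatase of MAP kinases, differed by 0.48 ± 0.12, Crem, a cAMP-responsive transcription factor, by 0.63 ± 0.17 and the nuclear receptor Nr4a1 by 0.93 ± 0.37. The list mean was highest in mad565 (9.04), which had the lowest Dbh and the lowest Scg2 of the high-Th group. Without mad565 the count was 3 in place of 5.

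**Figure D5:**
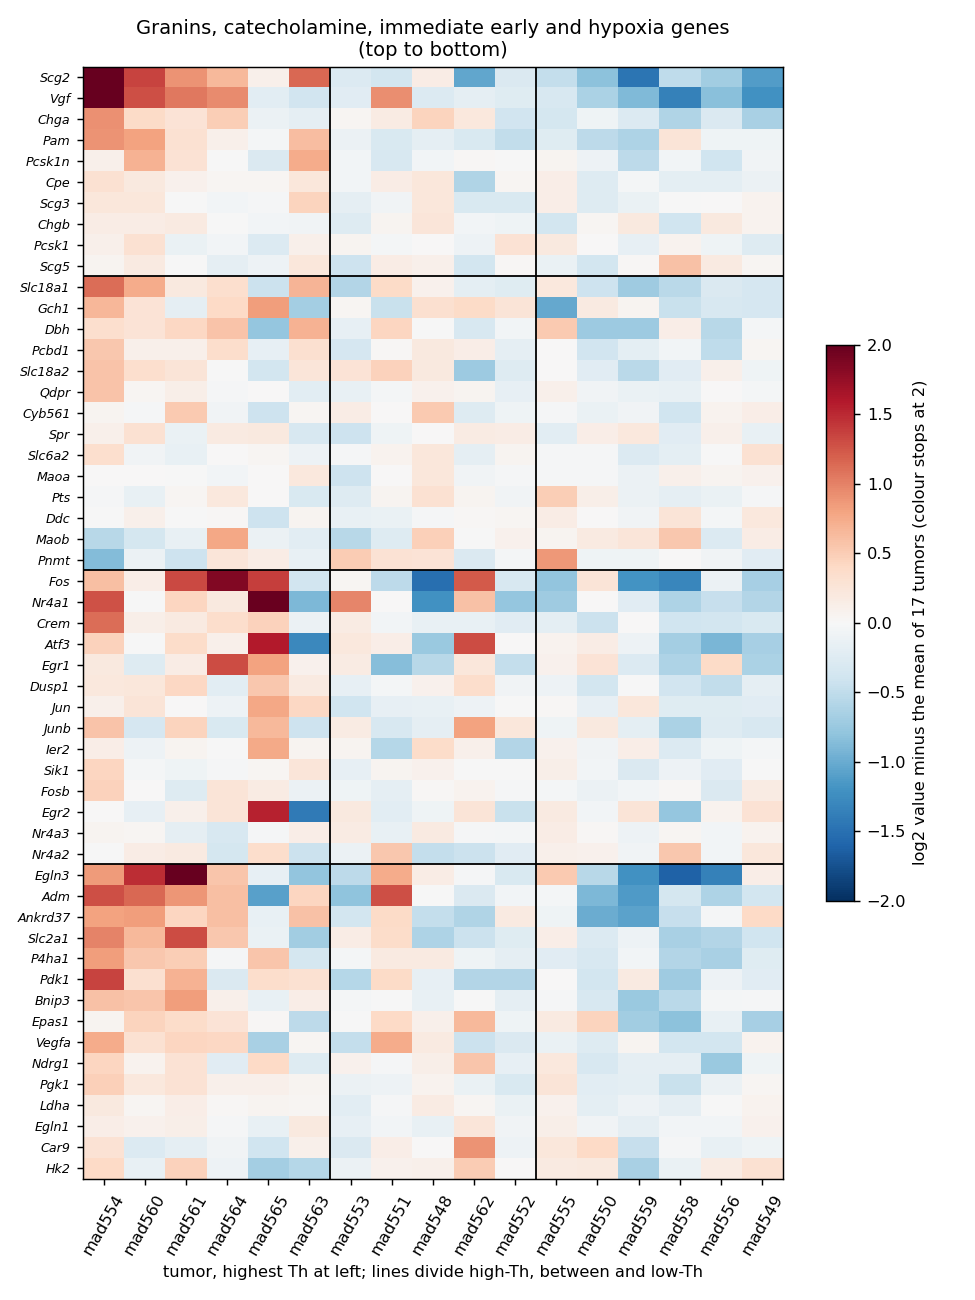
Log2 value minus the gene's mean over 17 tumors (colour, limited to 2 in either direction) for granin, catecholamine, immediate early and hypoxia genes (y axis, blocks in that order) in each tumor (x axis, highest Th at the left). Scg2 and Vgf were reddest in mad554, most hypoxia genes were high in mad554, mad560 and mad561, and the immediate early block was reddest in mad565.

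Of 23 proliferation genes, 20 had a negative difference, beside 8082 of all 18192 genes. At an unadjusted p under 0.05, 2 were lower and 0 were higher, beside 2.96% and 6.07% of all genes. The median was -0.08, against 0.02 for all genes. Tyms, thymidylate synthase, differed by -0.56 ± 0.18 and Ube2c, a mitotic ubiquitin enzyme, by -0.27 ± 0.11 (SE). The other 3 probe sets of Tyms, all dimmer, gave values between -0.11 and 0.08. Mki67 was at 13.59 to 13.74 in the high-Th and 13.61 to 13.92 in the low-Th tumors, a difference of -0.12 ± 0.07, so the proliferation marker was high in both groups. The median of the list moved to -0.05 without mad549 and mad556.

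Among genes of all kinds, Fzd2 and Muc2 had the lowest p. Fzd2, a Wnt receptor, was at 8.50, 9.67 and 10.38 in the high-Th tumors and 6.31, 7.14 and 8.06 in the low-Th tumors. Its difference of 2.46 ± 0.36 (SE) was the largest positive one of all genes, and its other probe sets gave 2.49 and 1.62. The tumors between did not lie between in Fzd2, however, since they ran from 6.81 to 10.63 and mad552 exceeded every high-Th tumor. Muc2, a gel-forming mucin named after its values had been seen, was at 6.69, 6.92 and 7.56 against 4.89, 5.61 and 5.98, a difference of 1.49 ± 0.20. Without mad554 both genes passed, each with an adjusted p of 0.0465. Muc2 was highest of all in mad551 (7.71), a tumor between the groups. Both genes thus separated the 6 from the 6 without following Th over the rest.

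The other named genes on the high-Th side were picked by lowest p in this same comparison. Their small errors and lack of overlap follow in part from that choice. The phosphatase subunit Ppp2r5b (0.44 ± 0.07), Grina (0.40 ± 0.07), the clathrin adaptor subunit Ap1s1 (0.40 ± 0.08), the proteoglycan Spock1 (0.48 ± 0.10), the ubiquitin ligase scaffold Cul7 (0.42 ± 0.09), the RNA-binding Fxr2 (0.49 ± 0.11) and the glycosyltransferase Galnt6 (1.0 ± 0.21) each had all high-Th tumors above all low-Th tumors. Their adjusted p in limma lay between 0.179 and 0.360, and 0.368% of all genes had all high-Th tumors above. Adcyap1r1, the receptor of the neuropeptide PACAP, was named after its values had been seen and also did not overlap, with 0.50 ± 0.11.

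On the low-Th side Car3, a carbonic anhydrase of muscle and fat, had the largest difference of all genes, -4.48 ± 0.83 (SE, adjusted p = 0.269). It was at 5.46, 6.48 and 9.15 in the high-Th tumors and 7.83, 11.54 and 13.35 in the low-Th tumors, with mad555 the lowest of the latter. The other Car3 probe sets, all dimmer, gave -1.56, -0.55 and -0.34. Without mad555 Car3 was lower in the high-Th tumors by limma, with a difference of -5.16 and an adjusted p of 0.0418. Among the other genes of lowest p on that side, Ccdc80, an adipocyte-secreted protein, differed by -1.11 and the growth hormone receptor Ghr by -1.03. The polymerase Polg (-0.33), Rpusd2 (-0.26) and Ttc32 (-0.35) had all low-Th tumors above, as had 0.0989% of all genes. Other probe sets gave 0.05 and -0.18 for Polg and 0.04 for Ttc32. Those of Rpusd2, all dimmer, ran from -0.16 to 0.14. Ankle1, Ntsr2, Galnt9 and Zfp729b had negative differences of 0.31 to 0.59 in size.

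Markers of adjacent tissue were also read. Of all genes, 6.07% were higher and 2.96% lower at an unadjusted p under 0.05 in the main comparison. Of 6 fat genes, 3 were lower at an unadjusted p under 0.05 (Adipoq, Fabp4 and Retn), and the other 3, Lpl (0.01), Lep (0.05) and Pparg (0.09), had small positive differences. The list mean was 7.09 to 8.65 in the high-Th and 7.95 to 9.28 in the low-Th tumors. All 10 skeletal muscle genes had a negative difference, 1 of them at an unadjusted p under 0.05, and the list mean was 5.80 to 6.18 in the high-Th tumors and 6.05 to 10.91 in the low-Th tumors. The highest 2 of the latter were mad550 (10.91) and mad549 (10.09). In these 2 tumors the muscle creatine kinase Ckm was at 11.24 and 11.07, and in the other 10 of the 12 it was 6.0 to 6.58. The part of fat and muscle RNA in the difference of Car3 was not tested by itself. Without mad549 and mad550, which left the 6 high-Th tumors against the other 4 low-Th tumors, 6 of 10 granin genes and 7 of 15 hypoxia genes were higher at an unadjusted p under 0.05, with medians of 0.35 and 0.48, and the median of the muscle list was -0.14.

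Markers of other cell types overlapped between the groups. Their counts are to be read beside the 6.07% higher and 2.96% lower of all genes. The counts at an unadjusted p under 0.05 were 1 higher (Cd14) and 0 lower of 14 macrophage genes, 0 and 1 (Tek) of 11 endothelial genes, 1 (Thy1) and 2 (Col3a1 and Postn) of 12 fibroblast and pericyte genes, 0 and 1 (Alas2) of 4 erythroid genes and 1 (Mx2) and 0 of 11 interferon genes. In limma, 0 of 9 glial, 9 adrenal cortex, 12 T and NK cell, 7 B cell, 6 liver and 6 MHC class II genes reached that level in either direction. Thy1, which neurons also express, differed by 0.93 ± 0.36. The median of the fibroblast list was -0.35 and that of the endothelial list -0.19, beside 0.02 for all genes. Xist, the X inactivation transcript, was low in 2 high-Th tumors (mad554 at 5.82 and mad561 at 7.29) and in 1 low-Th tumor (mad555 at 6.06), and at 12.84 or above in the other 9. With the Xist level as a covariate 0 genes were called, and the granin count stayed at 6 of 10.

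The genes whose pattern over the 17 tumors was most like that of Th are given as a description, since Th set the groups, and tumors share their tissue composition. The highest Pearson r was that of Aldh3b1, an aldehyde dehydrogenase, at 0.86, with a Spearman rho of 0.63. Next came the fibroblast growth factor homologue Fgf14 (0.83), the lysosomal Pld3 (0.82), Fhdc1 (0.82) and Grina (0.82). Without mad549 and mad556 these 5 values were 0.75, 0.84, 0.81, 0.83 and 0.79. The lowest r were those of Myb (-0.85), Olfr65 (-0.83), D16Ertd472e (-0.83), Gpn1 (-0.82) and Dus3l (-0.82), and without the same pair they lay between -0.56 and -0.78. The differences of these 5 genes between the groups were 0.28 or less in size. Olfr65 lay at 4.40 to 4.93, near the floor of the arrays. Fgf14 was also dim, at 4.18 to 5.20 in the low-Th tumors, and was highest in mad554 (7.04) and mad560 (5.98). Its difference was 0.89, and its dimmer probe sets gave 0.24, 0.20 and 0.08.

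Th lies on chromosome 7 among imprinted genes, and the nearest annotated genes were read after Ascl2, one of them, had come up with Th. Ascl2, a transcription factor beside Th, was at 7.66, 8.57 and 9.95 in the high-Th tumors and 7.10, 7.82 and 8.61 in the low-Th tumors, a difference of 0.91 ± 0.35 (SE), and its r with Th was 0.82 over 17 tumors. Its adjusted p as a slope on Th was 0.0423, and 0.158 over the 15 tumors without mad549 and mad556. The other neighbours differed by 0.26 (Ins2), 0.33 (Igf2), 0.05 (Igf2os), -0.14 (Tspan32) and -0.06 (R74862). The differences of the neighbours thus did not all have the same sign, and their likeness to Th over the 17 tumors is not given here.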

How the data were processed

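Arrays of 17 TH-MYCN tumors were available, 1 per tumor, while the study's text counts more tumors than these. The deposited log2 values were made by the authors with RMA, beside which the submitters' processing notes name Partek 6.4. The study's results text names RMA, its methods text MAS5. The values, from 3.28 to 15.59, were used as deposited, and the number of arrays limits the precision. Of 45101 probe sets, 64 were controls, 34945 carried 1 gene symbol in the platform annotation, 932 several and 9160 none here.

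Each gene was taken at its probe set of highest mean. The 6 highest and 6 lowest Th tumors were compared with limma 3.58.1 in R 4.3.3 (lmFit, eBayes, two-sided, Benjamini-Hochberg over 18192 genes, no filter on low values), which was tested on simulated data. The labels do not say whether tumors came from separate litters, so p-values measure the spread between these tumors.

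The groups and gene lists were chosen with earlier results of these data known. The naming rule took all genes of the catecholamine, granin and transcription factor lists, the 2 of lowest p of each other list, the 10 of lowest p in each direction with a mean at or above 7.54 (the median of all genes), the 5 highest and 5 lowest r with Th, and Mycn. Other genes were named after values had been seen, among them the further list members. Promoters are RefSeq's (GRCm38.p6), matched by symbol for 8 of 10 granin genes. Alternatives covered group size, Th as a level, probe sets, filters, centring, the variance model, array weights, Xist and single tumors. A tally of where the 5 tumors between lay was dropped, because genes with wide gaps hold them more often by construction.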

Additional observations from a re-analysis of the deposited data

Results flagged for a closer look

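Within a group of 6 tumors, 1 tumor stood far from the other 5 in 14 of 220 tests of named genes. Chance alone gives about 1 in 20, so the count was near that of chance and the flags are a description. The figure given for each is its gap to the nearest tumor as a share of the group's range, given where it exceeds Dixon's critical value. In the high-Th group mad565 was low for Dbh (9.10, share 0.721) and Ddc (13.13, 0.793), and high for Myc (6.21, 0.668) and the endothelial junction gene Cldn5 (8.81, 0.752). It was thus a tumor of high Th with the lowest values of both enzymes that follow in the pathway. High-Th mad563 was low for Insm1 (11.46, 0.777) and high for Maoa (10.62, 0.736) and Alb (5.76, 0.654). High-Th mad564 was high for Maob (8.94, 0.67) and Fabp7 (5.41, 0.708). In the low-Th group mad559 was high for the liver genes Alb (10.26, 0.913) and Fgb (6.48, 0.799) and low for Pmp22 (9.78, 0.699). Low-Th mad555 was high for Pnmt (9.29, 0.785), and mad550 for Cd79b (6.35, 0.633).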

How the results depend on the processing

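No paired analysis was possible because the labels place all tumors in a single group, with 1 array for each. The counts of 0 higher and 0 lower genes held under all but 6 of 27 alternatives. Array weights gave 1 higher gene (Muc2, adjusted p 0.0231 in limma). Leaving out 1 tumor at a time gave 0 to 3 higher and 0 to 1 lower genes: Fzd2, Muc2 and Scg2 without mad554, Doc2b, Adm, Muc2 and, lower, Car2 without mad565, and Muc2 and, lower, Car3 without mad555. Th as a level gave 9 higher genes over 17 tumors and, chosen after seeing the data, 6 over the 15 without mad549 and mad556. The comparison of groups without that pair, also added then, gave 0 calls with a lowest adjusted p of 0.857, and the added exact permutation test 0 with 0.435. The cause was not tested. Beside 6 of 10 granins in the main comparison, 5 to 7 reached an unadjusted p under 0.05 in the alternatives that kept all 10.

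Of 2828 values of 110 named genes under the alternatives, 2750 kept their direction and side of the threshold, 14 passed it and 64 changed sign, in 15 genes of which 14 lay within 1 SE of 0. With 5 against 5 tumors, the difference was 0.039 for H2-Ab1, 0.086 for Pts, -0.030 for Maoa, 0.17 for Insm1 and 0.075 for Mycn. With 7 against 7 it was -0.015 for Spr, -0.033 for Tlx2 and -0.041 for Maoa. With 8 against 8 it was -0.044 for Spr, -0.066 for Tlx2, -0.027 for Maoa, 0.13 for Insm1 and 0.075 for Mycn. With Th as a level, the slope was -0.0038 for Slc6a2, 0.060 for Fgb, -0.017 for Maoa and 0.031 for Insm1. Over the 15 tumors without mad549 and mad556 the slope was 0.027 for Insm1, 0.036 for Scg5, 0.10 for Eya1 and 0.092 for Mycn. With the mean of all probe sets, the difference was 0.084 for Ddc, -0.015 for Slc6a2, -0.16 for Maoa and 0.11 for Mycn. Array weights gave 0.021 for Pts, -0.020 for Maoa, 0.034 for Insm1 and 0.031 for Mycn. The Xist covariate gave -0.010 for Tlx2. Groups without mad549 and mad556 gave -0.020 for Pcsk1, -0.013 for Tlx2, 0.0045 for Scg5, 0.076 for Eya1 and 0.078 for Mycn. Groups without mad549 and mad550 gave 0.050 for Mycn. With 1 tumor left out at a time, the ranges were -0.98 to 0.11 (Alb), -0.010 to 0.18 (Cyb561), -0.11 to 0.033 (Pts), -0.015 to 0.12 (Slc6a2), -0.012 to 0.10 (Pcsk1), -0.19 to 0.21 (Fgb), -0.054 to 0.091 (Tlx2), -0.022 to 0.033 (Maoa), -0.17 to 0.087 (Insm1), -0.11 to 0.081 (Scg5), -0.085 to 0.058 (Eya1) and -0.12 to 0.068 (Mycn).

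Groups from a second Th probe set could not be formed, since there is 1. Leaving out mad562, a tumor between the groups, leaves the comparison as it is. With 6 tumors a side and Th as the ranking value, differences near the spread between tumors could not be told from 0, and dim probe sets near the array floor carry little.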
